A study of Mus musculus with 4 samples.

Results

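A set of 41 genes of autophagy and the lysosome, with FoxO transcription factors among them, was described in muscle stem cells that derived from transplanted donor cells. The genes were taken from the table by name, with no threshold on their values, and all 41 were found among the 21264 rows of the deposited table. They fall into 8 roles: 5 transcriptional regulators, 6 genes of initiation and nucleation, 4 of membrane supply, 6 of the conjugation machinery, 5 of the Atg8 family, 5 cargo receptors, 3 genes of the lysosomal membrane and 7 of the lysosomal lumen.

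The data are RNA sequencing of 4 mouse libraries of 1 group. They were made from satellite cells, which are muscle's resident stem cells, that descended from a graft and were re-isolated. The donor cells were iPax3 cells, myogenic progenitors derived from pluripotent stem cells, and all 4 libraries carried NICD3 overexpression (N3OE). NICD3 is the part of Notch3 that is released inside the cell and acts in the nucleus. The sources used here give neither the promoter that drives NICD3, nor the age and strain of the hosts, nor any pooling of animals. No control cells were analysed here, and none of the values below is an effect of NICD3. Separate animals or cultures are not stated for the 4 replicates, so p-values measure the spread between these libraries, which may be technical.

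Autophagy encloses cytoplasm in a double membrane, the autophagosome, and delivers it to the lysosome for breakdown. The Ulk1 complex starts the process, the Beclin 1 and Vps34 complex marks the membrane with a lipid, 2 ubiquitin-like conjugation systems attach Atg8 proteins to it, and receptors such as p62 tie cargo to those proteins. FoxO factors and the MiT/TFE factors Tfeb and Tfe3 switch on many of these genes. In muscle, FoxO3 is known for driving autophagy and protein breakdown during wasting, and autophagy is known to help keep satellite cells quiescent.

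Levels are in CPM, reads per 1000000 counted reads, recovered from the deposited log2 scale and given for replicates 1 to 4 in that order. Depth was 12544138 to 13302916 reads per library, so that 1 read was worth 0.0752 to 0.0797 CPM. The 10 satellite cell markers were all present, with summed levels of 5039 to 6303 CPM, and Pax7 stood at 118 to 142 CPM. Myofibre genes summed to 616 to 1481 CPM, fibro-adipogenic genes to 5453 to 8278 CPM with Pdgfra under 1 CPM on average, and macrophage genes to 36.7 to 181 CPM. The myofibre sum rested on Acta1, with 455 to 1095 CPM, whereas the myosin genes Myh1, Myh2 and Myh4 averaged 107, 7.33 and 13.6 CPM. The fibro-adipogenic sum rested on Col3a1, Gsn and Dpt, with means of 4599, 1246 and 1117.5 CPM. Dcn and Ly6a averaged 20.1 and 8.29 CPM. As a check for duplicated libraries, the counts of each pair of libraries were compared with counting error alone, and none agreed within it.

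All 41 genes reached 1 CPM in every library, whereas 53.6% of all genes in the table did. The genes were chosen with earlier results of these data known, so such shares are descriptions only. Of the 41, 38 averaged at least 10 CPM (43.3% of all genes), and 34 lay above 26.4 CPM, the median of 12876 detected genes (mean of at least 1 CPM). Together they took 0.880% of reads, with summed levels of 8115, 11253, 8364 and 7471 CPM. The sum was highest in replicate 2. Foxo4, Optn and Tfeb were the 3 genes below 10 CPM. The lowest single value, 2.76 CPM for Optn in replicate 3, rested on 36 reads, with a 95% Wilson interval of 1.99 to 3.81 CPM that covers counting error only.

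**Figure D1:**
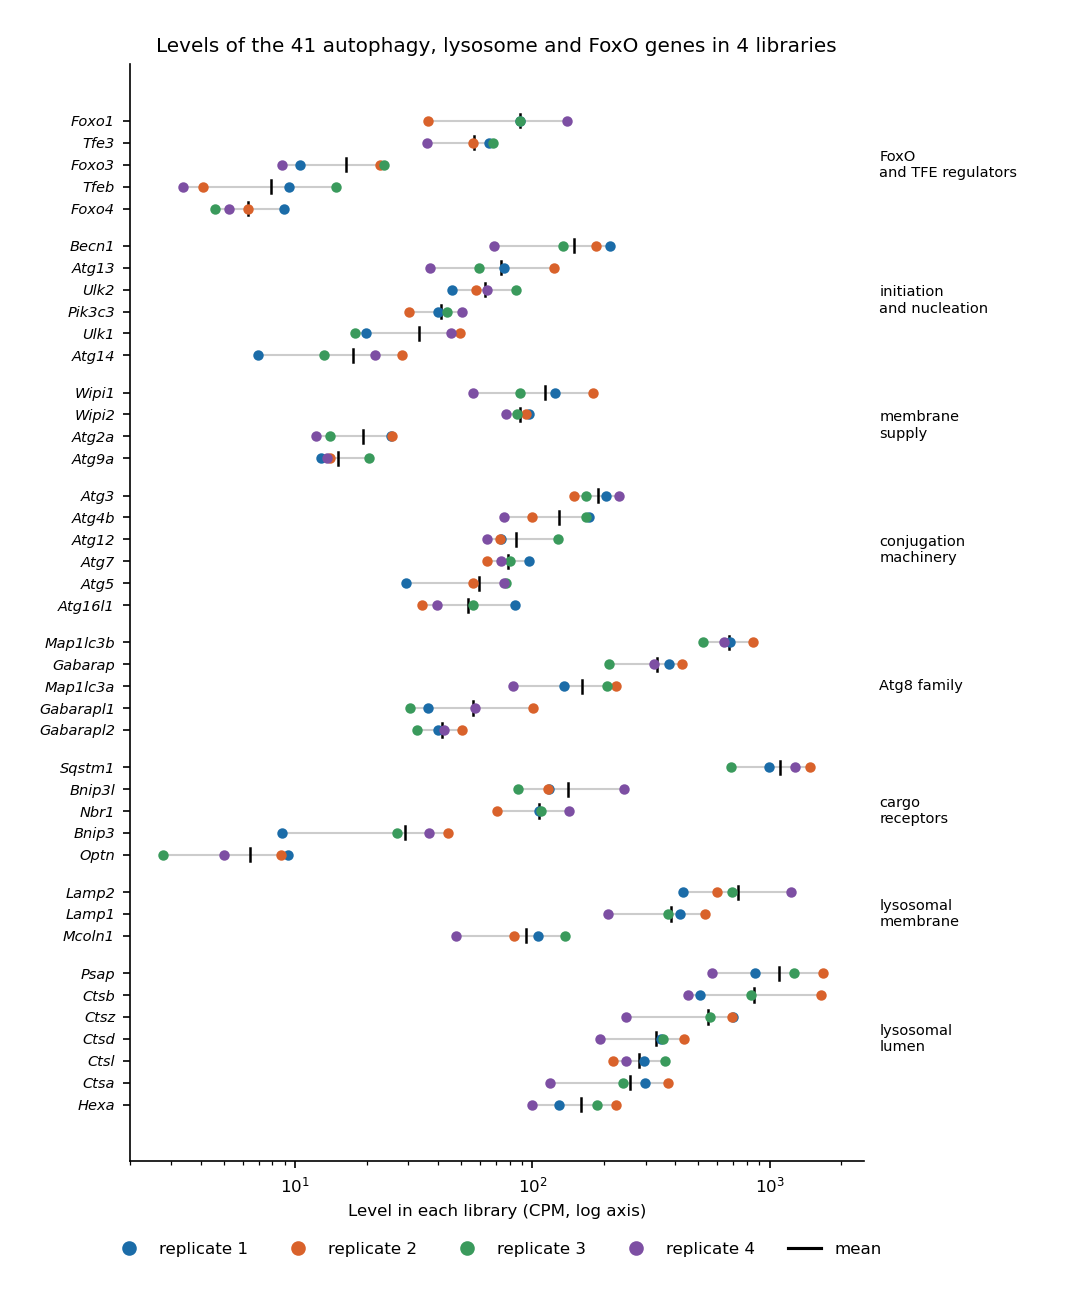
Level of each of the 41 genes in each library, in CPM on a log axis, grouped by role; points are libraries, coloured by replicate, and the black bar is the mean of 4. On this axis, which is not corrected for length, Sqstm1 and Psap have the highest means, 1111 and 1098 CPM, and Foxo4 the lowest, 6.29 CPM.

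Levels of different genes are compared per kb of exon, since a longer transcript gives more reads. Among the regulators, Foxo1 and Tfe3 averaged 10.2 and 6.09 CPM per kb, and Foxo3, Foxo4 and Tfeb 2.17, 1.80 and 1.40 CPM per kb. Foxo1, a factor that restrains myoblast differentiation and drives catabolic genes, had 88.5, 36.2, 88.9 and 139 CPM. Foxo3 had 10.5, 22.7, 23.7 and 8.77 CPM, and Foxo4 had 8.99, 6.31, 4.59 and 5.26 CPM. Foxo1 had its lowest value in replicate 2, where Foxo3 was near its highest. Per kb of exon, Foxo3 minus Foxo1 was -2.14 ± 1.38 (log2 difference, SD, n = 4) and negative in 4 of 4 libraries, while Foxo3 minus Foxo4 was 0.05 ± 0.90 with that sign in 2 of 4. Differences between genes are on the log2 scale throughout. The pair Foxo3 and Foxo4 cannot be ordered from these libraries.

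Tfe3 had 65.3, 56.2, 67.9 and 36.0 CPM. Tfeb, the better known activator of lysosomal genes, had 9.38, 4.06, 14.9 and 3.35 CPM and had a ratio of 4.44 between its highest and lowest library. Tfe3 exceeded Tfeb by 2.14 ± 0.59 per kb of exon in 4 of 4 libraries, and by 1.41 with the length of the longest transcript. Both were lowest in replicate 4. Of the other members of their families, Mitf averaged 3.70 ± 1.99 CPM, Foxo6 stayed under 1 CPM in every library, and Tfec had 0 reads throughout, for which 3 counts set an upper limit of 0.226 to 0.239 CPM by library.

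The initiation genes averaged 4.05 CPM per kb for Atg14 to 21.2 CPM per kb for Becn1. Becn1, the scaffold of the lipid kinase complex, had 213, 185, 135 and 68.6 CPM. Pik3c3, the lipid kinase Vps34 itself, had 39.8, 30.1, 43.6 and 50.5 CPM and was the steadiest of the group. Atg13, a subunit of the Ulk1 complex, had 75.8, 123, 59.6 and 36.8 CPM. Becn1 and Atg13 were both lowest in replicate 4, where Pik3c3 was highest. Becn1 minus Pik3c3 was 1.09 ± 0.97 per kb and positive in 3 of 4 libraries, with -0.23 in replicate 4, and 1.75 with no length correction. An antisense gene, Cntd1, overlaps 43.9% of the annotated Becn1 exon sequence, so the Becn1 level is uncertain.

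The kinase genes Ulk1 and Ulk2 differed in which libraries were high. Ulk1 had 19.9, 49.6, 17.9 and 45.4 CPM, in 2 low and 2 high libraries. Ulk2 had 45.9, 57.9, 85.2 and 64.0 CPM. Ulk1 minus Ulk2 was -1.13 ± 0.88 per kb and negative in 4 of 4 libraries, from -0.34 in replicate 2 to -2.31 in replicate 3. Atg14, which directs the lipid kinase complex to autophagosome formation, averaged 17.5 ± 9.36 CPM.

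Genes of membrane supply averaged 2.51 to 25.5 CPM per kb, and 1 of them was the steadiest of all 41 genes. Wipi1, a reader of the Vps34 lipid, had 125, 181, 88.9 and 56.3 CPM. Wipi2, which recruits the conjugation machinery, had 96.7, 94.1, 86.1 and 77.1 CPM, with the smallest SD of log2(CPM + 1) among the 41 genes, 0.15. Both were lowest in replicate 4, Wipi1 by far more than Wipi2. Atg2a, a lipid transfer protein, had 25.3, 25.6, 14.0 and 12.2 CPM, and the scramblase gene Atg9a averaged 15.2 ± 3.49 CPM. Wipi2 minus Wipi1 was -1.48 ± 0.58 per kb and negative in 4 of 4 libraries, with -0.85 for the length of the longest transcript and -0.22 with no length correction. Atg9a shares 31.8% of its exon sequence with Gm29253 on the same strand and is uncertain for that reason.

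The conjugation genes averaged 5.56 CPM per kb for Atg16l1 to 59.8 CPM per kb for Atg3. Atg3, the enzyme that passes Atg8 proteins to the membrane lipid, had 204, 149.9, 169 and 232 CPM. Atg4b, the protease that trims Atg8 proteins, had 173, 99.2, 168 and 75.8 CPM. Atg12, a ubiquitin-like protein, had 73.5, 72.8, 128 and 64.6 CPM, and its partner Atg5 had 29.3, 56.0, 77.5 and 76.1 CPM. Both were highest in replicate 3, and Atg12 was lowest in replicate 4 and Atg5 in replicate 1. Atg12 minus Atg5 was -1.17 ± 0.64 per kb and negative in 4 of 4 libraries, but -0.48 with the length of the longest transcript and 0.54 with no length correction. Atg7, the activating enzyme of both systems, stood at 78.8 ± 13.8 CPM and Atg16l1, which places the Atg12 conjugate on membranes, at 53.5 ± 22.4 CPM. None of the 6 was highest in replicate 2, where 19.5% of all genes of at least 10 CPM were highest.

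Per kb of exon, the Atg8 family was led by Gabarap at 182 ± 50.4 and Map1lc3a at 137.5 ± 55.5 CPM per kb. Map1lc3b, which encodes LC3B, had 684, 849.9, 522 and 643 CPM. Gabarap had 377, 428, 211 and 325 CPM. Map1lc3a had 136, 225, 206 and 82.6 CPM. Gabarapl1 had 36.2, 100.2, 30.4 and 57.3 CPM, and Gabarapl2 had 40.1, 50.5, 32.6 and 42.4 CPM. All 5 genes were highest in replicate 2 (19.5% of all genes of at least 10 CPM), and 4 of the 5, all but Map1lc3a, were lowest in replicate 3 (18.4%). After a linear correction for GC content and length, 4 of the 5 were highest in replicate 2 and 1 in replicate 3. Per kb of exon, Gabarapl1 minus Gabarap was -2.79 ± 0.53 and Gabarapl2 minus Gabarap was -3.29 ± 0.23, both negative in 4 of 4 libraries. Map1lc3b minus Map1lc3a was -0.54 ± 0.68 with that sign in 3 of 4 libraries, but 0.23 with the length of the longest transcript and 2.13 with no length correction, so that their order per length depends on the transcript assumed. An antisense gene covers 28.3% of the Gabarapl1 exon sequence.

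Of the cargo receptors, Sqstm1 stood far above the rest, at 331 ± 103 CPM per kb against 1.72 to 36.5 for the other 4. Sqstm1 encodes p62, which binds ubiquitin and LC3 and is itself degraded by autophagy; its transcript level does not tell how much protein is present. The gene lies on chromosome 11, 50199366 to 50210827 (mm10). It had 990.5, 1484, 689 and 1282 CPM and was lowest in replicate 3. Nbr1, a related receptor, had 107, 70.6, 108 and 142 CPM. Optn, a receptor for bacteria and mitochondria, had 9.30, 8.72, 2.76 and 5.02 CPM. Sqstm1 exceeded Nbr1 by 4.38 ± 0.73 and Optn by 7.44 ± 0.50 per kb, in 4 of 4 libraries each. Mrnip, on the other strand, overlaps 17.3% of the Sqstm1 exon sequence.

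Bnip3 and Bnip3l are mitophagy receptors that hypoxia induces. Bnip3l had 117, 116, 86.5 and 244 CPM and was highest in replicate 4. Bnip3 had 8.76, 44.2, 26.9 and 36.7 CPM. It was lowest in replicate 1 and had the widest spread of the 41 genes, with a 5.05-fold ratio between its extreme libraries and an SD of 0.99. Bnip3l exceeded Bnip3 by 1.56 ± 1.02 per kb in 4 of 4 libraries, from 0.60 in replicate 2 to 2.83 in replicate 1. Bnip3l has an annotated pseudogene copy, Bnip3l-ps, and an antisense gene overlaps 22.3% of the Bnip3 exon sequence, so both levels are uncertain.

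**Figure D2:**
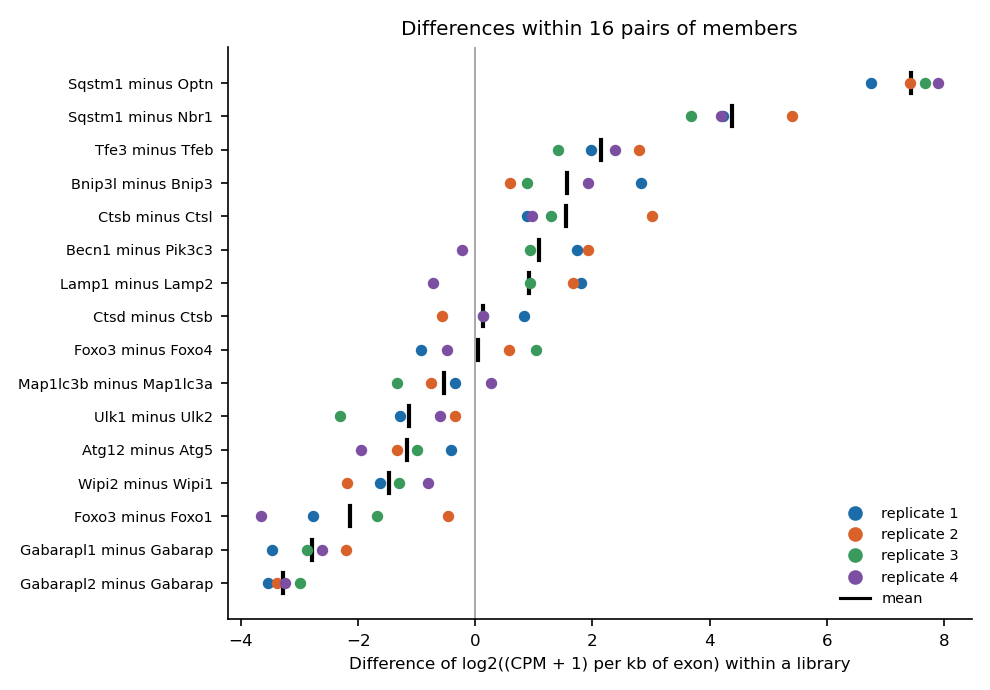
Difference of log2((CPM + 1) per kb of exon) within each library for 16 pairs of the listed genes, first gene minus second; points are libraries and black bars the means. Sqstm1 minus Optn is largest at 7.44, Gabarapl2 minus Gabarap lowest at -3.29, and 11 pairs lie on one side of 0 in all 4 libraries.

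In all, 16 pairs were compared. The sign was the same in 4 of 4 libraries for 11 of them, in 3 of 4 for 4 and in 2 of 4 for 1. Each of the 11 had a two-sided exact sign-flip permutation p of 0.125 (n = 4), adjusted to 0.182 over the 16 pairs. The smallest p which 4 libraries allow is 0.125, so no pair can pass 0.05 by this test. Becn1 minus Pik3c3, Map1lc3b minus Map1lc3a and Lamp1 minus Lamp2 each had an exact p of 0.25, adjusted to 0.286, and Foxo3 minus Foxo4 one of 0.875.

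Per kb of exon, Psap at 400.2 ± 176 and Ctsz at 382 ± 147 CPM per kb had the highest means of the 41 genes. With the length of the longest transcript, Sqstm1 came first at 416 CPM per kb, before Psap at 413 and Ctsz at 382. Lamp1 and Lamp2, the 2 main proteins of the lysosomal membrane, did not vary alike. On mm10, Lamp1 lies at chromosome 8, 13159161 to 13175338, and Lamp2 at chromosome X, 38401357 to 38456454. Lamp1 had 419, 533, 373 and 208 CPM and was lowest in replicate 4. Lamp2, which also serves chaperone-mediated autophagy, had 431, 597, 693 and 1225 CPM and was highest there. Lamp1 minus Lamp2 was 0.92 ± 1.16 per kb of exon, with 1.80, 1.67, 0.94 and -0.72 in replicates 1 to 4, so the order turned in replicate 4. It was -0.22 with the length of the longest transcript and -0.91 with no length correction. Mcoln1, the calcium channel of the lysosome, had 105, 83.4, 138 and 47.6 CPM.

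Psap, the precursor of the saposins that help digest sphingolipids, had 870.3, 1681, 1270.2 and 572 CPM. The protease gene Ctsb had 507, 1649.8, 830.5 and 453 CPM. Ctsz, a carboxypeptidase, had 701, 690.9, 560.2 and 247 CPM. Each of the 3 was lowest in replicate 4, and Psap and Ctsb were highest in replicate 2. Ctsd, an aspartyl protease, had 349, 434.5, 354 and 192 CPM. Ctsl, a cysteine protease, had 294, 219, 361 and 248 CPM and was the only one of the 7 lumen genes whose lowest library was not replicate 4. Ctsa, the protective protein of neuraminidase and galactosidase, averaged 257 ± 107 CPM, and Hexa, a subunit of hexosaminidase, 160.2 ± 56.6 CPM. Per kb of exon, Ctsb exceeded Ctsl by 1.54 ± 0.99 in 4 of 4 libraries, with 3.01 in replicate 2. Ctsd minus Ctsb was 0.13 ± 0.57 (exact sign-flip permutation p = 0.625, adjusted 0.667, n = 4), with that sign in 3 of 4 libraries, but -0.07 with the length of the longest transcript, -1.23 with no length correction and -0.10 without replicate 1. Ctsd shares 34.4% of its exon sequence with Gm49369 on the same strand, and antisense genes cover 12.8% of Ctsb, 26.8% of Ctsl, 17.4% of Ctsa and 12.8% of Hexa.

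Many lysosomal promoters carry the CLEAR element, which Tfeb and Tfe3 bind and whose core is TCACGTG. RefSeq windows from 250 bases before to 50 after a start site (GRCm38.p6, the assembly of mm10) were found for 33 of the 41 genes, and TCACGTG was searched on both strands. It was in 17.9% of the 39 windows of these genes (7 genes) and in 3.77% of all 32851 windows. In other genes of the pathway, which include nutrient sensing genes and FoxO targets, it was in 19.0% of 142 windows. Among lysosomal members it was in Lamp1, Mcoln1, Ctsd and Ctsa; among autophagy genes, in Atg3, Atg7 and Atg14. The shorter E-box CACGTG, which every CLEAR match contains, was in 25.6% of member windows and 7.15% of all. The FoxO element GTAAACA, searched on both strands and not overlapping the other motifs, was in no member window and in 3.65% of all. A match is only a string of letters and not a measured binding site. Besides Ctsa, which also held 2 matches, the stretches with 2 or more are shown for a lysosomal membrane protein, a lysosomal channel, a protease and a conjugation enzyme, 5′ to 3′ on the strand of the gene, with TCACGTG or its reverse complement in capitals.
Lamp1, chr8:13159084-13159166, + strand: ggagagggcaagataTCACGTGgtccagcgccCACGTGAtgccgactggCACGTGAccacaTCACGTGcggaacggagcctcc
Mcoln1, chr8:3500432-3500495, + strand: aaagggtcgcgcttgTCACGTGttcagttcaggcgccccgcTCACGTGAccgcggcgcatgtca
Ctsd, chr7:142387904-142388077, - strand: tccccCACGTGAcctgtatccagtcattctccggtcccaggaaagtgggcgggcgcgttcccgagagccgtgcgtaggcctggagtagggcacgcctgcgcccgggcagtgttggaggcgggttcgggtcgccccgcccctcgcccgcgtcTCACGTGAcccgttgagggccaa
Atg3, chr16:45158719-45158779, + strand: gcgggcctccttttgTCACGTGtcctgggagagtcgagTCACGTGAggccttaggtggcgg

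Lamp1 held 4 matches within 62 bases before its start, and Mcoln1, Ctsd and Atg3 held 2 each. Of the 5 genes with 2 or more matches, Lamp1, Mcoln1, Ctsd and Ctsa were lowest in replicate 4, with 208, 47.6, 192 and 118 CPM, whereas Atg3 was highest there with 232 CPM. Over all genes of at least 10 CPM, 31.3% were lowest in replicate 4. Atg7 and Atg14, with 1 match each, were lowest in replicates 2 and 1. Without a match in their windows, Ctsz, Hexa and Psap were lowest in replicate 4, Ctsl in replicate 2 and Lamp2 in replicate 1. A link between matches and levels was not tested.

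Levels differed widely between the role groups. As the mean of log2((CPM + 1) per kb of exon) over a group, the lysosomal lumen stood at 6.91 ± 0.53, the Atg8 family at 5.96 ± 0.36, the lysosomal membrane at 5.60 ± 0.22, the cargo receptors at 4.35 ± 0.36 and the conjugation machinery at 3.95 ± 0.24. Initiation genes stood at 3.18 ± 0.26, membrane supply at 2.61 ± 0.32 and the regulators at 1.67 ± 0.31 (SD, n = 4). The lumen group was first and the regulators last in all 4 libraries. The Atg8 family and the lysosomal membrane changed places in replicate 3, at 5.65 and 5.84, and so did the cargo receptors and the conjugation genes, at 3.96 and 4.22, so neither pair is ordered beyond its spread. The lumen group had the widest spread of the 8, with 6.91, 7.43, 7.12 and 6.19.

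Spread between libraries was near that of the table at large. The median SD of log2(CPM + 1) was 0.58 for the 38 genes of at least 10 CPM and 0.62 for all 9202 genes at that level. None of the 38 had an SD of 1 or more, against 2.08% of all genes. Dixon's criterion for 1 deviating library was met by 0 of the 38, against 5.11% of all genes. In 11 of the 41 genes the highest library was at least 3 times the lowest, and in 12 it was under 2 times. These counts include the 3 genes below 10 CPM. The same ratios were not counted over all genes, so the counts cannot be set against the table at large.

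The libraries in which the genes peaked were not evenly shared. Of the 38 genes, 18 were highest in replicate 2 (19.5% of all genes of at least 10 CPM), 6 in replicate 1 (26.4%), 8 in replicate 3 (23.7%) and 6 in replicate 4 (30.4%). The lowest library was replicate 4 for 18 genes (31.3% of all genes), replicate 1 for 6 (28.2%), replicate 2 for 7 (22.1%) and replicate 3 for 7 (18.4%). The 18 genes highest in replicate 2 included the 5 Atg8 genes, Sqstm1, Bnip3, Lamp1 and 5 of 7 lumen genes. The 18 lowest in replicate 4 included 6 of 7 lumen genes, Lamp1, Mcoln1, Tfe3 and Becn1. In bulk RNA, fewer cells of a type and less RNA per cell cannot be told apart.

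**Figure D3:**
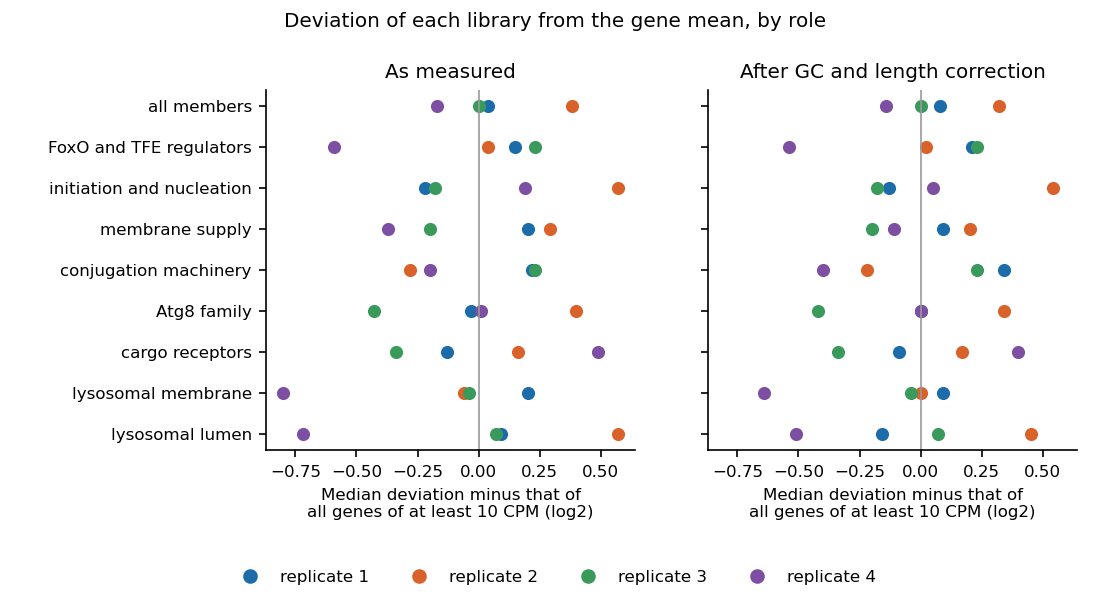
Median deviation of each library from the gene mean, on the log2 scale, for all 38 genes of at least 10 CPM and for each role, minus the same over all genes of at least 10 CPM; the right panel is after a linear correction for GC content and length. Replicate 4 is low for lumen genes (-0.72 as measured, -0.51 corrected) and replicate 2 high (0.57 and 0.45). Replicate 4 is also low for lysosomal membrane genes (-0.80 and -0.64) and regulators (-0.59 and -0.54).

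As medians, the 38 genes deviated from their own means by 0.04, 0.38, 0.00 and -0.17 in replicates 1 to 4, after subtraction of the median over all genes. The value in replicate 2 was 0.18 without replicate 4 and 0.21 without replicate 3. Lumen genes deviated by 0.57 in replicate 2 and -0.72 in replicate 4. Genes of the lysosomal membrane deviated by -0.80 in replicate 4 and regulators by -0.59, each a median of 3 genes. Of these genes, Lamp2 and Foxo1 were highest there. The Atg8 family deviated by 0.40 in replicate 2 and -0.43 in replicate 3. Conjugation genes went the other way in replicate 2, at -0.28. Cargo receptors were high in replicate 4, at 0.49. The sign of the deviation in a library differed between roles.

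Transcript GC content was read beside these differences. Over 9195 genes, the deviation in replicate 1 had a Spearman coefficient of 0.435 with transcript GC content and that in replicate 4 had -0.555. In replicates 2 and 3 the coefficients were 0.219 and 0.006. Over the 38 genes they were 0.137, 0.495, -0.069 and -0.475 in replicates 1 to 4, as descriptions across genes of the same 4 libraries. Of the 22 listed genes with a GC content of at least 50%, 17 were lower in replicate 4 than in replicate 1 (75.1% of all such genes), and of the 16 below 50%, 6 were (29.5%). Lamp2 has a GC content of 38.7% and Lamp1 of 51.6%, and replicate 4 minus replicate 1 was 1.50 for Lamp2 and -1.01 for Lamp1. Becn1 and Ulk1 went the other way, with -1.62 at a GC content of 45.0% and 1.15 at 58.0%. After a linear correction for GC content and length, 16 of the 38 genes were highest in replicate 2 (21.2% of all genes), 15 of them among the 18 before correction, and 16 were lowest in replicate 4 (25.7%), 14 of them among the 18 before correction. Lumen genes deviated by 0.45 and -0.51 in these libraries. The part of GC content in the differences between libraries was not tested.

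**Figure D4:**
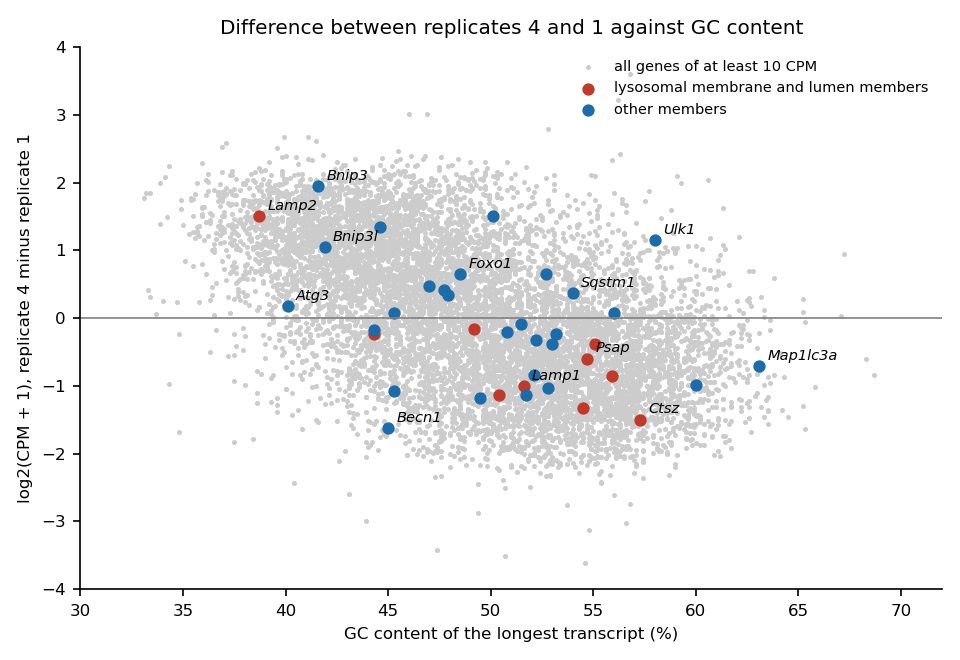
Difference of log2(CPM + 1) between replicate 4 and replicate 1 against the GC content of the longest transcript, for all genes of at least 10 CPM (grey), lysosomal genes of the list (red) and its other genes (blue). Lamp2, at 38.7% GC, lies at 1.50 and Ctsz, at 57.3% GC, at -1.50, whereas Becn1, at 45.0% GC, lies at -1.62.

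Other values differed between these libraries as well. The 12 macrophage markers summed to 36.7, 181, 73.3 and 99.3 CPM, with 10 of them at a mean of 1 CPM or more, 6 at 1 CPM in every library and Itgam and Tyrobp under 1 CPM on average. Macrophages are rich in cathepsins. The sum was highest in replicate 2, where Ctsb was at 1649.8 CPM, while Cd14 was highest in replicate 1 and Itgam in replicate 4. Of the other listed cathepsins, Ctsa and Ctsd were highest in replicate 2, Ctsz in replicate 1 and Ctsl in replicate 3. The macrophage sum was lowest in replicate 1, whereas 6 of 7 lumen genes were lowest in replicate 4. The 8 myofibre markers, all detected in every library, summed to 616, 1428, 1481 and 698 CPM. Markers of committed myoblasts summed to 258, 899, 882 and 487 CPM. Ttn made up 669 CPM of that sum in replicate 2, whereas Myod1, Myog, Mymk, Mymx and Mef2c were each highest in replicate 3. The sum of the 12 genes of the dissociation response was lowest in replicate 2, at 35484.5 CPM. It reached 56852, 59331 and 44284 CPM in replicates 1, 3 and 4. Jun, Junb and Ier2 were each lowest in replicate 4 instead. The part of these cell types and of the dissociation response in the levels of the listed genes was not tested.

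A further 145 genes of the same pathway, in 8 lists, were read beside the 41. Of these, 141 reached 1 CPM in all 4 libraries (97.2%, against the 53.6% of all genes). Of the 132 that averaged at least 10 CPM, 32 were highest in replicate 2 and 42 lowest in replicate 4, which is 24.2% and 31.8%, near the shares over all genes. Whether the 41 differ from the wider pathway in these shares was not tested.

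By reads, lysosomal genes outside the 41 were led by Cd63, a tetraspanin of late endosomes, at 2749.7 ± 1163 CPM, and Laptm4a, a lysosomal membrane protein, at 723 ± 280.2 CPM. The vacuolar ATPase, the proton pump that acidifies the lysosome, had all 16 listed subunits and accessory genes in every library. Atp6ap1 stood at 531 ± 288 CPM, and Atp6v1a was steady at 307 ± 23.0 CPM. As a median the pump genes deviated by -0.41 in replicate 4. The 39 other lysosomal genes of at least 10 CPM deviated by -0.12 there and by 0.19 in replicate 2. Rab7, the small GTPase of late endosomes, led the fusion genes with 534 ± 151 CPM, followed by the tethering subunit gene Vps41 with 168 ± 92.8 CPM.

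Among further autophagy genes, Vmp1, a scramblase needed for autophagosome formation, averaged 441 ± 108 CPM and Rb1cc1, the FIP200 subunit of the Ulk1 complex, 187 ± 91.5 CPM. Tax1bp1, a ubiquitin-binding receptor, averaged 467 ± 205 CPM and Calcoco1, a receptor for the endoplasmic reticulum, 165 ± 56.3 CPM. Atg16l2 and the protease Atg4d led the other conjugation genes with 62.8 ± 23.4 and 41.4 ± 11.0 CPM. Calcoco2 was without reads throughout, with the same upper limit as Tfec, and Ccpg1 stayed under 1 CPM in each. Of the nutrient sensing genes, the mTORC1 activators Rheb and Rraga led with 177 ± 65.2 and 106 ± 42.9 CPM.

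All 16 FoxO target genes of the list reached 1 CPM in every library. Fbxo30, a ubiquitin ligase of muscle wasting, had 319.9, 720, 336.5 and 1065 CPM, and the catalase gene Cat had 83.3, 192, 181 and 267 CPM. Both were lowest in replicate 1 and highest in replicate 4. The wasting ligases Fbxo32 (atrogin-1) and Trim63 (MuRF1), named after their values were seen, averaged 52.3 ± 35.0 and 21.8 ± 13.4 CPM. Trim63 was lowest in replicate 1 with 6.18 CPM and highest in replicate 3 with 37.6 CPM. As a median the target genes deviated by -0.21, 0.19, 0.16 and -0.04 in replicates 1 to 4.

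**Figure D5:**
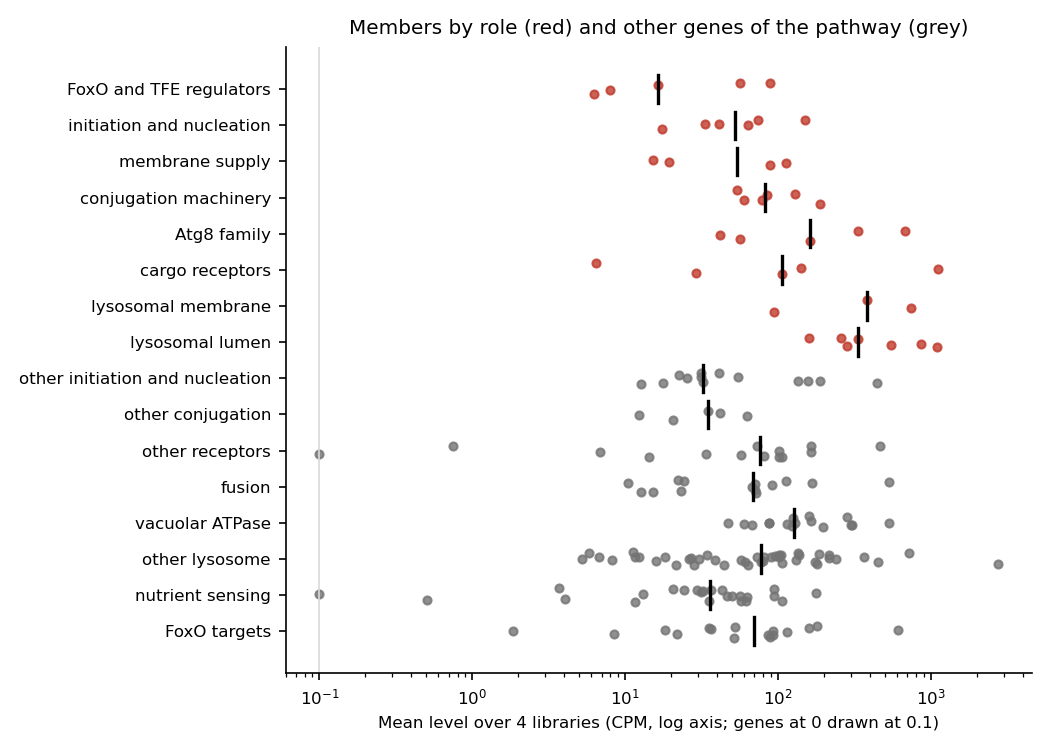
Mean CPM over 4 libraries, on a log axis, of the 41 genes by role (red) and of 145 other genes of the pathway by list (grey); black bars are list medians, and genes without reads are drawn at 0.1. Lumen genes have a median of 333 CPM, the regulators one of 16.4 CPM, and the vacuolar ATPase list one of 127 CPM.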

How the data were processed

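Per the labels' protocols, low-input RNA was extracted with Buffer RLT and beads, cDNA was amplified with a NEBNext low-input kit, and Nextera XT made the libraries. Values were deposited by the authors as log2 CPM with a constant offset; mm10 and the tools edgeR, featureCounts, FastQC and Trimmomatic 0.33 are named in the submitters' processing notes. For aligner, annotation release and strand setting, the entry is "not given in the sources used here". The offset of 0.0548 CPM was removed; 100% of values were then whole reads within 0.0001 reads, so that CPM and reads per library could be recovered. The design had foreseen a CPM scale, and with 1 group there was no contrast for a count model. For 8 symbols on several rows the row with the higher mean was used. Exon length and GC content came from GENCODE M21, with identifiers matched for 21215 of 21255 genes. Differences used log2(CPM + 1), which understates those of low genes, and within-library pair differences had an exact sign-flip test over 16 sign assignments with Benjamini-Hochberg adjustment. The correction for GC content and log2 length was a linear regression of the deviations per library. Scripts were tested on simulated reads. Reads amplified without molecular identifiers are not independent molecules.

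All 41 genes may be named, with full values for paired genes, the 3 most abundant of each role, and genes with an outlying library or an SD of at least 1; of other lists the 2 most abundant and those not detected are named. Members and lists were chosen with earlier results of these data known. Other cell type lists, with their range of summed CPM over libraries, were committed myoblast (258 to 899), endothelial (117 to 317), mural (527 to 1525), glial (179.5 to 443), tendon (7.51 to 238), lymphocyte (6.39 to 10.8), erythroid (0.638 to 3.31) and neutrophil (0.153 to 1.73). Python 3.11.15, numpy 2.4.6, pandas 2.3.3, scipy 1.17.1 and matplotlib 3.10.9 were used.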

Additional observations from a re-analysis of the deposited data

Results flagged for a closer look

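Dixon's criterion for 1 deviating library was met by none of the 38 listed genes with at least 10 CPM, the 8 role groups or the 16 pairs. Among the 145 other genes of the pathway, 4 of the 132 with at least 10 CPM did, against 5.11% of all genes at that level; chance gives about 1 in 20 groups. Atp6v0b, a subunit of the proton pump, had 189, 191, 193 and 65.2 CPM, low in replicate 4 (gap over range 0.982). Atp6v1b2, another subunit, had 345, 393, 119.6 and 338 CPM, low in replicate 3 (0.873). Igf2r, which carries enzymes to the lysosome, had 13.8, 15.3, 5.89 and 14.2 CPM, also low in replicate 3 (0.887). Prkag1, a subunit of AMP-activated kinase, had 86.2, 32.0, 35.4 and 32.4 CPM, high in replicate 1 (0.901).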

How the results depend on the processing

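No paired analysis was possible because there is only 1 group. Under the alternatives, 133 pair values kept their sign and 11 reversed. Many of the kept signs were fixed in advance and are no support. The correction for GC content and length acts on deviations from each gene's mean, so it cannot change a mean pair difference. Leaving out a replicate cannot reverse the 11 pairs that had the same sign in 4 of 4 libraries. Foxo3 minus Foxo4 was -0.26 with a pseudocount of 5 CPM, and from -0.27 (without replicate 3) to 0.37 (without replicate 1) when a replicate was left out, with -0.12 without replicate 2. With no length correction, Atg12 minus Atg5 was 0.54, Map1lc3b minus Map1lc3a 2.13, Lamp1 minus Lamp2 -0.91 and Ctsd minus Ctsb -1.23. With the length of the longest transcript, the last 3 were 0.23, -0.22 and -0.07. Ctsd minus Ctsb ranged from -0.10 without replicate 1 to 0.36 without replicate 2. The regulators' level was 2.04 with a pseudocount of 5 CPM, which raises low genes. The count of genes with an SD of at least 1 was 0, 1 with a pseudocount of 0.25 CPM, and 0 to 2 when a replicate was left out. The 7 alternative counts of detected genes stayed within 1.5 times the reported count, and the 32 alternative medians by library moved by less than the SD of the 4 medians, though that of replicate 2, 0.38, was 0.18 without replicate 4 and 0.21 without replicate 3. Depth is least for Optn, Foxo4 and Tfeb. With 4 libraries no sign-flip p can fall below 0.125.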
